A study of Mus musculus with 12 samples.

Results

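The clade B serpins are intracellular protease inhibitors of the ovalbumin type. Their genes were taken as every named row of the expression files whose symbol was Serpinb followed by a number and an optional letter. This gave 28 genes of 32498 named rows, of which 12 lie on chromosome 1 (GRCm38, 106861173 to 107610484) and 16 on chromosome 13 (32842092 to 34002794). The libraries came from tongues of C57BL/6 mice bought at 5 weeks of age, and all mice of both groups had drunk water with the carcinogen 4-nitroquinoline 1-oxide (4NQO, 100 µg/mL) over 16 weeks. The vehicle group was gavaged with the carrier and the GA group with gallic acid, a plant phenolic acid, at 100 mg/kg on the same schedule of 5 gavages per week from week 4. Each group held 6 RNA-seq libraries, labelled as tumor and tumor-associated tissue, and the labels do not state that each came from a separate mouse, so p-values measure the spread between these libraries.

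A serpin presents a reactive loop to a protease, and cleavage of that loop traps the enzyme in a covalent complex. Clade B members lack a classical secretion signal and act mainly within cells, where they protect against proteases released from granules and lysosomes. In mice the chromosome 1 cluster holds the squamous cell carcinoma antigen genes and other serpins of stratified epithelium, and the chromosome 13 cluster holds expanded families that inhibit neutrophil proteases and granzymes. Krt13 encodes a keratin of the suprabasal cells of non-cornified mucosa and served as the epithelial anchor. S100a9, a calprotectin subunit that is abundant in neutrophils and is also made by keratinocytes, served as the leukocyte anchor.

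The chromosome 1 cluster dominated the family in every library. Levels are given as scaled FPKM, the deposited read density per gene length and library depth divided by a factor per library (0.914 to 1.08). The 12 chromosome 1 genes summed to 1103 to 4856 scaled FPKM with vehicle (median 2228) and to 966 to 3477 with GA (median 2225). The 16 chromosome 13 genes summed to 69.1 to 83.0 with vehicle (median 72.2) and to 65.9 to 83.1 with GA (median 74.3). Chromosome 1 thus supplied between 92.1% and 98.5% of the family's summed level, and the groups overlapped in both sums.

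Of the 28 members, 19 had a mean of at least 0.1 FPKM over the 12 libraries and were compared between groups. These were all 12 genes of chromosome 1 and 7 of chromosome 13. Over the libraries, 4 members had a mean above 100 scaled FPKM (Serpinb3a, Serpinb12, Serpinb3c and Serpinb5), 5 lay between 10 and 100, and 10 between 1 and 10. The other 9 members, all on chromosome 13, were at or near 0. Serpinb9c, Serpinb9d, Serpinb9g, Serpinb9h and Serpinb6d had 0 reads in each of the 12 libraries, which allows up to 3 reads per library, or 0.0602 to 0.135 FPKM, for counting error only. Serpinb9b had 0 to 19 reads per library, with its highest value in Vehicle 4, and Serpinb9e had 0 to 5. Serpinb9f had 3 reads in GA 6 and Serpinb6e had 1 read in GA 4, with 0 elsewhere. Only 18.5% to 45.2% of the 50-base windows in the exons of Serpinb9f, Serpinb9g and Serpinb9h are unique among transcripts, so unique mapping could understate them.

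**Figure D1:**
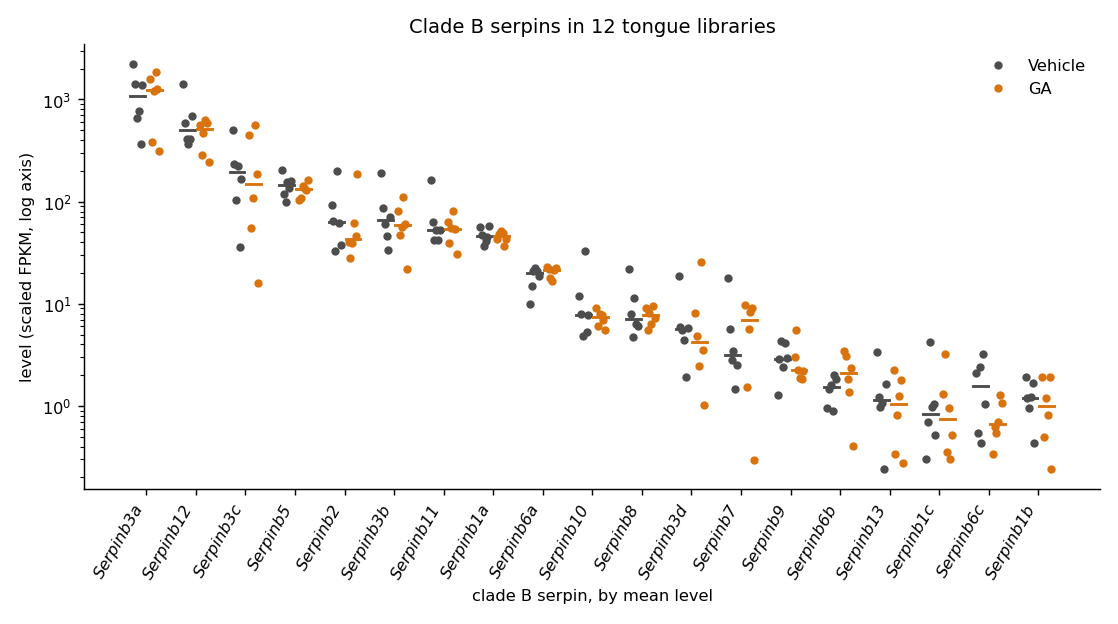
Levels of the 19 clade B serpins compared between groups, in scaled FPKM on a log axis, with members ordered by mean level. Each point is 1 library (6 vehicle, 6 GA) and each short line a group median. Serpinb3a lies at 316 to 2212 scaled FPKM, and in every member the 2 groups overlap.

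Promoter windows of 8 members are shown because they separate the closely related squamous cell carcinoma antigen genes from their neighbours in the same cluster. Each is the 250 bases before the RefSeq start (GRCm38.p6), 5′ to 3′ on the strand of the gene. Capitals mark matches on either strand to TATAAA (the TATA box), TTCNNNGAA (a STAT element), GGAAGT (an ETS element) or TGANTCA. The last is a loose form of the AP-1 element, which has C or G as its middle base. Matches do not overlap each other here.
Serpinb3a, chr1:107052304-107052553, minus strand: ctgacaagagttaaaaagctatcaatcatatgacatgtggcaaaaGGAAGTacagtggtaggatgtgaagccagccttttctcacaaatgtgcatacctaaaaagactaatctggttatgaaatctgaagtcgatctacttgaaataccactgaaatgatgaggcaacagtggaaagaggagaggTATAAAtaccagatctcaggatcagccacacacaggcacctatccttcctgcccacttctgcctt
Serpinb3b, chr1:107161115-107161364, minus strand: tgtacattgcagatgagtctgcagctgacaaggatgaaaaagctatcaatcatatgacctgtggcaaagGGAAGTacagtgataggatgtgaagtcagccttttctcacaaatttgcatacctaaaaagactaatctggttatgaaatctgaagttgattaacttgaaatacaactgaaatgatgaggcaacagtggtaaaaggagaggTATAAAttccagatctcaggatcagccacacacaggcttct
Serpinb3c, chr1:107278372-107278621, minus strand: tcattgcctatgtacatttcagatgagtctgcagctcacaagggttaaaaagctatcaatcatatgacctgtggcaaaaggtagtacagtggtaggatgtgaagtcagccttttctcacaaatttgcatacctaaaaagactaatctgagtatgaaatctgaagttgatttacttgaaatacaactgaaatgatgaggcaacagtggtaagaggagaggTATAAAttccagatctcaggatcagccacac
Serpinb3d, chr1:107083481-107083730, minus strand: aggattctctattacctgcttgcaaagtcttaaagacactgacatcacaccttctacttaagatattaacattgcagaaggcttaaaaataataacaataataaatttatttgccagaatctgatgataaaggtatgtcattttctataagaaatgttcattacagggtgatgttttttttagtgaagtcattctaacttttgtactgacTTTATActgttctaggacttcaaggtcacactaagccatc
Serpinb12, chr1:106934199-106934448, plus strand: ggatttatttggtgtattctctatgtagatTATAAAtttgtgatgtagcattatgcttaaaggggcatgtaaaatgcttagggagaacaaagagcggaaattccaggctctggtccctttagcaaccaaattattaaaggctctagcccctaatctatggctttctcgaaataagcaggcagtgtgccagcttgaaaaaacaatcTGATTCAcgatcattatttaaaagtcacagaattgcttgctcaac
Serpinb5, chr1:106860925-106861174, plus strand: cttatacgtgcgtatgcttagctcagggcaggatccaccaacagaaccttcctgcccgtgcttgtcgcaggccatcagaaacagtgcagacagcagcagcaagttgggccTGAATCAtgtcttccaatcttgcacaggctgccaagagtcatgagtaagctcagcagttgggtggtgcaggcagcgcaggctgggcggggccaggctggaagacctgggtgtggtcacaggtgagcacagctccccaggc
Serpinb2, chr1:107511173-107511422, plus strand: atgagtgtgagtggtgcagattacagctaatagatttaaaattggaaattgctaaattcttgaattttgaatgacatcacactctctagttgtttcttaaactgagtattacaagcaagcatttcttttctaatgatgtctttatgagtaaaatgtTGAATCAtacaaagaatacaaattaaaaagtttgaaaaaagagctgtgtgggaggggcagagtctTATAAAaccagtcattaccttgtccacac
Serpinb10, chr1:107528753-107529002, plus strand: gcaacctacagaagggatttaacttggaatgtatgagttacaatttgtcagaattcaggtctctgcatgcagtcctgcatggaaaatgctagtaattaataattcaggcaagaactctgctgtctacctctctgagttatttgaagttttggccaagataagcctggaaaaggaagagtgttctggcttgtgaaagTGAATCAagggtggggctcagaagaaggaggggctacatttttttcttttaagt
RefSeq promoter entries were matched for 26 of the 28 members and for 17 of the 19 that were compared, with Serpinb13 and Serpinb1a not matched. The windows of Serpinb3a, Serpinb3b and Serpinb3c were 81.6% to 91.6% identical in pairs, whereas the 33 other pairs among 9 chromosome 1 members were 55.6% to 63.2% identical. Serpinb3d fell in the second range, at 58% against Serpinb3a. Windows of unrelated genes were not aligned, so the second range has no baseline and is not read as shared sequence. The 17 compared members had 21 windows, and a match in any window of a member counted, whereas the shares of all windows are per window. TATAAA occurred in 8 of 17 compared members and in 12.4% of all 32851 promoter windows of this length. It began 65, 41 and 31 bases before the start in Serpinb3a, Serpinb3b and Serpinb3c, and 29 bases before it in the Serpinb2 window shown. In Serpinb12 it lay farther upstream, 220 bases before the start in the window shown and 201 in a further window. The matches in Serpinb3d (40 bases before the start) and Serpinb7 (239 and 33) were on the opposite strand. TGANTCA occurred in 7 of 17 compared members (Serpinb5, Serpinb12, Serpinb11, Serpinb7, Serpinb2, Serpinb10 and Serpinb8) against 6.75% of all windows. All 7 lie on chromosome 1, and none of the 4 Serpinb3 windows held it. The middle base of the match was G in Serpinb7 and Serpinb8, and A or T in the other members named. TTCNNNGAA was found in 2 of 17 (7.02% of all windows), in Serpinb2 only in a further window that is not shown, and GGAAGT in 5 of 17 (19.7%). These are matches of letters only, and the Serpinb3 genes share their sequence by descent, so the counts are not of independent windows.

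Members were placed on a side by Pearson correlation of log2(scaled FPKM + 0.1) with Krt13 and S100a9 over the 12 libraries. A member was placed on the epithelial side if its r with Krt13 was at least 0.5 and above its r with S100a9, and on the leukocyte side in the converse case. Since the rule uses these values they are a description with no test, and all points share libraries, depth and tissue mixture. Krt13 ranged from 5579 to 22197 scaled FPKM and S100a9 from 130 to 1594, and their own r was -0.23. The epithelial side received 10 of the 19 compared members, against 15.2% of all tested genes placed by the same rule. The leukocyte side received 1 member, against 6.42% of all tested genes, and 8 members fell on neither side. All 10 members on the epithelial side came from chromosome 1, namely Serpinb12, Serpinb3a, Serpinb11, Serpinb13, Serpinb3b, Serpinb7, Serpinb3c, Serpinb8, Serpinb5 and Serpinb3d. Their r with Krt13 ran from 0.92 for Serpinb12 to 0.52 for Serpinb3d, which lay just inside the limit. Serpinb1b, with 0.34, was the nearest outside it.

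The single gene on the leukocyte side was Serpinb1a, whose product inhibits neutrophil elastase, proteinase 3 and cathepsin G. Its r was 0.57 with S100a9 and 0.54 with Krt13, so the anchors hardly differed for it. Without the 2 libraries farthest from the S100a9 median (GA 5 and GA 1), its r with S100a9 was 0.32. S100a9 tracked S100a8 with r = 0.99 but had r of -0.26 to 0.40 with the other 10 neutrophil genes listed, and 0.34 with the mean of all 11. With that mean as anchor in place of S100a9, Serpinb9 was the only member on the leukocyte side and Serpinb1a joined the epithelial side, for 11 members there. With Spearman's rho in place of Pearson's r, 7 members were on the epithelial side and 0 on the leukocyte side. When the means of the epithelium and neutrophil lists replaced the single genes, the epithelial side held 2 members, Serpinb5 and Serpinb2.

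**Figure D2:**
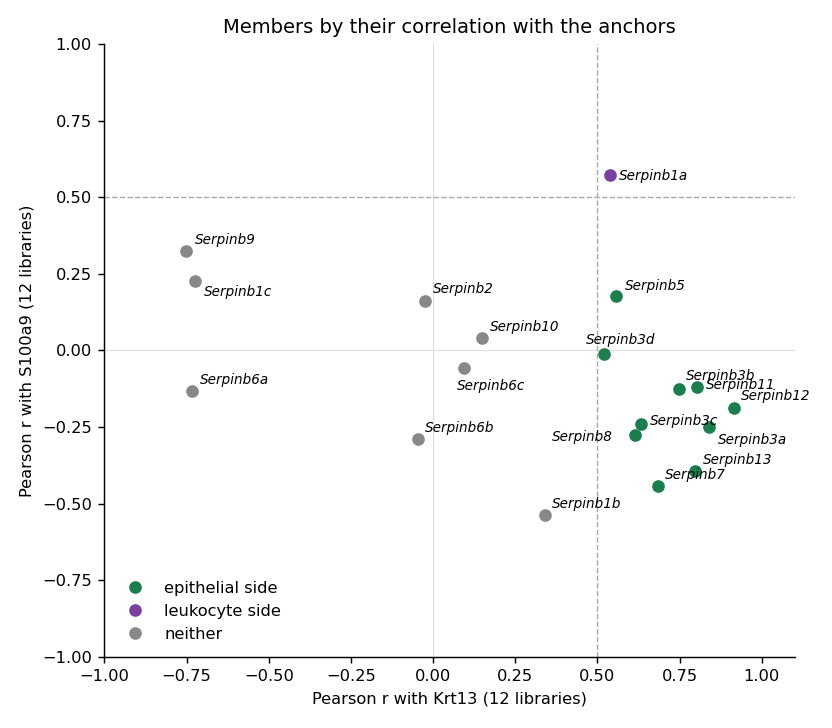
Pearson r of each member with Krt13 (x axis) and with S100a9 (y axis) over 12 libraries; dashed lines mark the limit of 0.5. The 10 members on the epithelial side lie right of the limit and Serpinb1a, at 0.54 and 0.57, lies above both limits.

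Within the epithelial side, 8 genes moved together. This block (Serpinb3a, Serpinb3b, Serpinb3c, Serpinb3d, Serpinb7, Serpinb11, Serpinb12 and Serpinb13) was named after its values were seen, and its 28 pairwise r lay between 0.71 and 0.92 (median 0.86). The median was 0.90 within vehicle and 0.91 within GA, and it was 0.19 over all 171 pairs of compared members. GA 6 had the lowest level of the block for Serpinb3a, Serpinb3b, Serpinb3c, Serpinb3d, Serpinb7, Serpinb11 and Serpinb12, and Vehicle 5 had it for Serpinb13. Vehicle 1 had the highest level for 6 of the 8, and GA 4 for Serpinb3c and Serpinb3d.

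Serpinb3a, a homolog of the squamous cell carcinoma antigens that inhibits both serine proteases and lysosomal cysteine proteases, was the most abundant member. It ranged from 369 to 2212 scaled FPKM with vehicle (median 1082) and from 316 to 1848 with GA (median 1229). It made up 29.7% to 55.3% of the family's summed level in a library. Its r with Krt13 was 0.84 (0.87 within each group), and 0.78 without Vehicle 1 and GA 2, the libraries farthest from the Krt13 median.

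Serpinb12, a trypsin inhibitor of barrier epithelia, was second and had the highest r with Krt13, at 0.97 within vehicle and 0.87 within GA. Its level was 364 to 1417 scaled FPKM with vehicle (median 504) and 244 to 628 with GA (median 515). Vehicle 1 stood apart, and the remaining 11 libraries reached at most 687.

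Serpinb3c and Serpinb3d spread more widely than Serpinb3a, and Serpinb3b did not by its standard deviation of log2 level (0.80 against 0.97). Serpinb3c ranged from 36.2 to 502 scaled FPKM with vehicle (median 196) and from 15.9 to 561 with GA (median 147). Serpinb3b lay between 33.8 and 189 with vehicle (median 65.9) and between 21.9 and 111 with GA (median 58.6). Serpinb3d was at 1.90 to 18.8 with vehicle (median 5.70) and 1.03 to 25.4 with GA (median 4.22). The highest library thus exceeded the lowest 35.2-fold for Serpinb3c and 24.7-fold for Serpinb3d, against 7.01-fold for Serpinb3a. Between 85.0% and 87.8% of the 50-base windows in the exons of these 4 genes are unique, and Serpinb3b and Serpinb3c share 2.07% and 2.11% of their annotated exon bases, so reads could be split among them.

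Serpinb7 and Serpinb11 were in the same block at lower levels. Serpinb7, also called megsin and needed for normal cornified skin in humans, ranged from 1.45 to 17.9 scaled FPKM with vehicle (median 3.13) and from 0.297 to 9.83 with GA (median 7.0). The lowest value rested on 15 reads in GA 6, and the highest library exceeded it 60.2-fold, the widest range among the compared members. Serpinb11 was at 41.9 to 164 with vehicle (median 52.6) and 30.7 to 80.8 with GA (median 54.6), with Vehicle 1 far above the others. Serpinb13, or headpin, an inhibitor of cathepsins L and K, was low throughout, at 0.243 to 3.38 with vehicle (median 1.15) and 0.279 to 2.27 with GA (median 1.04), from 9 to 104 reads per library.

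**Figure D3:**
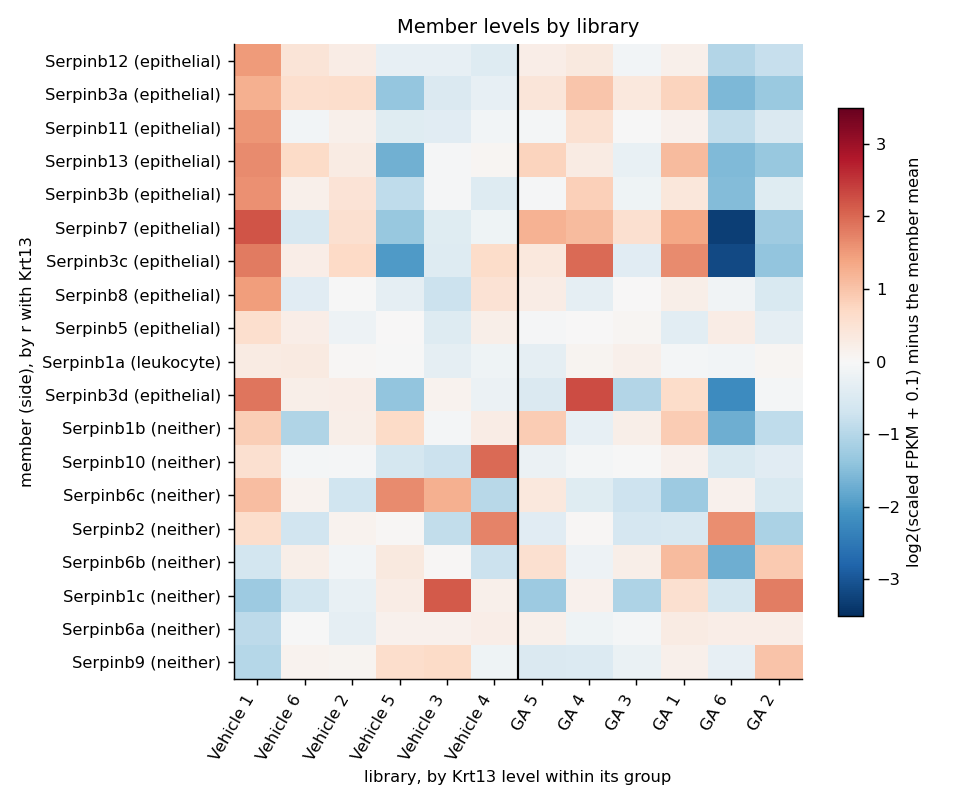
log2(scaled FPKM + 0.1) of each compared member minus its own mean, with members ordered by r with Krt13 and libraries ordered by Krt13 level within each group; the line divides vehicle from GA. The upper rows are high in Vehicle 1 and low in GA 6, GA 2 and Vehicle 5, while Serpinb9 runs the other way in Vehicle 1.

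Serpinb5 and Serpinb2 tracked a list of 16 squamous epithelium genes more closely than Krt13, and their own r was 0.62. Serpinb5, or maspin, a member without inhibitory activity that is known as a marker of epithelial cells, was among the steadiest, at 99.4 to 205 scaled FPKM with vehicle (median 146) and 104 to 162 with GA (median 134). Its r with Krt13 was 0.56, and 0.10 without Vehicle 1 and GA 2, so its place on the epithelial side rests on those libraries. Its r with the mean log2 level of 16 squamous epithelium genes was 0.92, and with 10 skeletal muscle genes -0.89. The epithelium and muscle lists had r = -0.86 with each other, so these values are not independent. Serpinb3a, by contrast, had r of -0.03 with the same epithelium list. Krt13 itself had r = 0.32 with the list of which it is a member, 0.85 with its partner keratin Krt4 and -0.34 with the basal keratin Krt14.

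Serpinb2, also called PAI-2, inhibits the urokinase-type and tissue-type plasminogen activators. It was at 32.9 to 201 scaled FPKM with vehicle (median 63.4) and 27.8 to 187 with GA (median 43.1). Vehicle 4 and GA 6 stood at 201 and 187, and no other library passed 92.9. Its r was -0.02 with Krt13 and 0.76 with the epithelium list. Serpinb10, or bomapin, known from myeloid cells and annotated as a polymorphic pseudogene in this mouse assembly, neighbours Serpinb2. Its level was 4.8 to 32.6 with vehicle (median 7.81) and 5.58 to 9.03 with GA (median 7.35). Vehicle 4 was its only high library, and GA 6, high for Serpinb2, had 5.58. The r of the pair was 0.91 within vehicle and -0.48 within GA. The genes share 12.4% of the exon bases of Serpinb2 and 8.34% of those of Serpinb10 on the same strand, and the part of shared reads in these levels was not tested.

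Serpinb8, an inhibitor of the convertase furin, was at 4.74 to 22.1 scaled FPKM with vehicle (median 7.17) and 5.49 to 9.49 with GA (median 7.69). Its r with Krt13 was 0.61, and 0.06 without Vehicle 1 and GA 2. Vehicle 1 held its highest level, as it did for Serpinb5, Serpinb11 and Serpinb12.

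**Figure D4:**
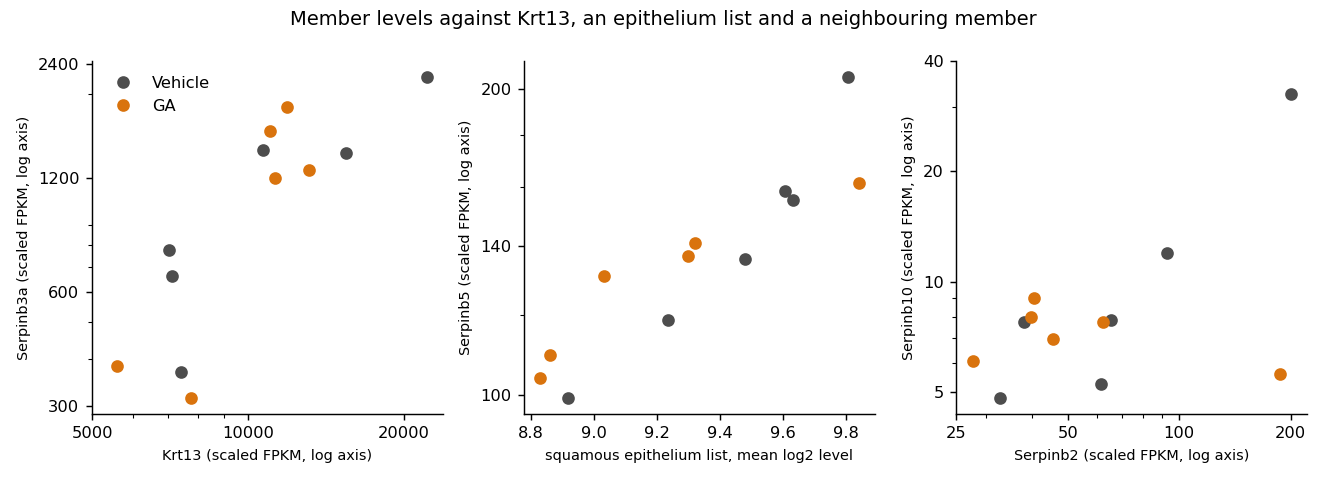
Levels by library (6 vehicle, 6 GA) of Serpinb3a against Krt13, Serpinb5 against the mean log2 level of 16 squamous epithelium genes, and Serpinb10 against Serpinb2; FPKM axes are log scaled. Over libraries, r was 0.84 for Serpinb3a with Krt13 and 0.92 for Serpinb5 with the epithelium list, and in the last panel Vehicle 4 alone is high for both genes.

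On chromosome 13, Serpinb1a was the most abundant and the least variable of the compared members. It ranged from 36.9 to 57.4 scaled FPKM with vehicle (median 46.4) and from 36.8 to 52.0 with GA (median 45.7). The standard deviation of its log2 level over 12 libraries was 0.21, whereas the median over all 16852 tested genes was 0.39. For the 12 chromosome 1 members the median of that standard deviation was 0.86 and for the 7 of chromosome 13 it was 0.77.

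Serpinb6a, an inhibitor of cathepsin G, was at 9.95 to 22.3 scaled FPKM with vehicle (median 19.8) and 16.9 to 23.1 with GA (median 21.7). Its r was -0.73 with Krt13 and -0.86 with Serpinb11, and Vehicle 1 was its lowest library. Genes on the opposite strand cover 29.3% of its exon bases, and whether counting used strand is not given in the sources used here, so its reads are uncertain.

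Serpinb9, the granzyme B inhibitor that protects cytotoxic cells from their own granules, ranged from 1.28 to 4.32 scaled FPKM with vehicle (median 2.91) and from 1.86 to 5.5 with GA (median 2.23). Vehicle 3, Vehicle 5 and GA 2 held 4.17 to 5.5 and the other 9 libraries 1.28 to 3.03. The same 3 libraries had 8079 to 26220 scaled FPKM of Lipf, a lipase of the serous glands of the tongue, and the others at most 0.498. The r of Serpinb9 was -0.75 with Krt13 and 0.85 with the mean of 12 macrophage and dendritic cell genes. It was 0.82 with a list of von Ebner gland genes, 0.78 with the muscle list and 0.77 with a fibroblast list. With the cytotoxic lymphocyte list it was 0.60 and with the neutrophil list 0.59. Serpinb1c, a paralog of Serpinb1a, had 0.30 to 4.18 with vehicle (median 0.842) and 0.301 to 3.21 with GA (median 0.743), with its 2 highest levels in Vehicle 3 and GA 2. In bulk tissue, fewer cells of a type and less RNA per cell cannot be told apart.

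The remaining compared members were low. Serpinb6b, a paralog of Serpinb6a, was at 0.898 to 2.01 scaled FPKM with vehicle (median 1.54) and 0.410 to 3.48 with GA (median 2.09). Its r with Serpinb2 was -0.85. Serpinb6c, another paralog, was at 0.437 to 3.23 with vehicle (median 1.58) and 0.337 to 1.27 with GA (median 0.661), from 10 to 99 reads per library. Serpinb1b was at 0.437 to 1.92 with vehicle (median 1.21) and 0.241 to 1.94 with GA (median 1.00).

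For each member, the non-member with the most similar pattern was taken from 12147 genes whose mean reached 1 FPKM, by Pearson r over the 12 libraries. In the block, Serpinb7 paired with Lyg1 (0.98) and Serpinb3c with the same gene (0.94), Serpinb3a with Cd207 (0.97), a Langerhans cell lectin, Serpinb12 with Sdr16c6 (0.97), Serpinb11 with Proser2 (0.97), Serpinb3b with Serpina9 (0.97), Serpinb13 with Gm1110 (0.95) and Serpinb3d with Slurp2 (0.91). Serpinb5 paired with Mpp7 (0.96), Serpinb2 with the collagen-binding integrin gene Itga2 (0.95), Serpinb8 with Plcxd2 (0.94) and Serpinb10 with Gm10335 (0.93). On chromosome 13 the partners were Cbx6 for Serpinb9 (0.96), Farp1 for Serpinb6a (0.95), Unc50 for Serpinb1a (0.92), the chemokine gene Ccl8 for Serpinb6b (0.91), Gpr146 for Serpinb1c (0.90), Miip for Serpinb1b (0.86) and Isoc2b for Serpinb6c (0.79). Each is the highest of many correlations over the same libraries and is given as a description.

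The comparison of GA with vehicle asked whether the family differed between treated and control tongues. No member was called. A call in limma needed a Benjamini-Hochberg adjusted p below 0.1 over all tested genes and a log2 fold change no smaller than 0.58 in either direction, on the log2(scaled FPKM + 0.1) scale, which understates the change of low genes. It was met by 0 of 19 members and by 0 of 16852 genes (0%), and for the members this adjusted p came to 0.99986 throughout. The looser limit of p below 0.05 without adjustment was met by 0 of 19 members and by 2.16% of all genes. No member had groups that did not overlap, against 0.0653% of all genes.

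The mean log2 level was lower with GA in 17 of 19 members, against 49.1% of all genes, with a median log2 fold change of -0.25. Over all tested genes the median was 0.00418. The count of lower members changed with single libraries and with a term for Y-linked reads, and the labels do not give the sex of the mice. Reads on Y-linked genes were present in 4 of 6 vehicle libraries (Vehicle 1 to Vehicle 4) and in 1 of 6 GA libraries (GA 1). With the presence of those reads as a term in the fit, 8 members were lower and 11 higher. Taking only the 7 libraries that lacked such reads, 8 of 19 were lower, and taking the 5 that had them, 9 were lower. Without Vehicle 1, which was high for most of the epithelial side, 10 of 19 were lower. Members of the block share their variation, so the 19 directions are not independent.

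Serpinb6c had the largest difference. Its log2 fold change was -0.80 (standard error 0.46, 95% interval -1.81 to 0.20), and 6 of 6 GA values lay under the median for vehicle (two-sided p by exact permutation = 0.139, where 0.00216 is the smallest p this design allows). With the Y-linked term it was -1.23 (limma, unadjusted p = 0.0323, adjusted p = 0.996), and without the 3 libraries with high Lipf it was -0.26 (limma, unadjusted p = 0.600). Only Serpinb6b and Serpinb6a were higher with GA, by 0.30 (standard error 0.42, exact permutation p = 0.537) and 0.23 (standard error 0.18, exact permutation p = 0.275). In libraries without Y-linked reads the difference of Serpinb6b was -0.31 and that of Serpinb6a 0.0074, and without Vehicle 1 that of Serpinb6a was 0.07.

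Among the members of the block the differences were within the spread of the libraries. Serpinb12 differed by -0.40 on the log2 scale (95% interval -1.16 to 0.37, exact permutation p = 0.333), and 3 of 6 GA values lay under the median for vehicle. Without Vehicle 1 it was -0.14. For Serpinb3a the difference was -0.10 (-1.27 to 1.06, exact permutation p = 0.868), and it was 0.29 with the Y-linked term. Serpinb3c gave -0.32 (-2.15 to 1.52), with 0.58 under the Y-linked term, and Serpinb7 gave -0.10 (-1.87 to 1.66), with 0.68. The intervals of Serpinb3a, Serpinb3c and Serpinb7 reach beyond 1 log2 unit in both directions.

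Narrower intervals were obtained for the steadier members. Serpinb5 differed by -0.13 (-0.51 to 0.24, exact permutation p = 0.468), or -0.03 without Vehicle 1, and Serpinb1a by -0.05 (-0.33 to 0.22, exact permutation p = 0.677). Serpinb2 differed by -0.33 (-1.40 to 0.74), and 5 of 6 GA values lay under the median for vehicle, with GA 6 far above it. The difference was -0.69 without GA 6 and -0.01 without Vehicle 4. Serpinb10 differed by -0.36 (-1.19 to 0.47) and by 0.00048 without Vehicle 4. The other members with lower means lay between -0.32 and -0.11, and their exact permutation p between 0.545 and 0.818.

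**Figure D5:**
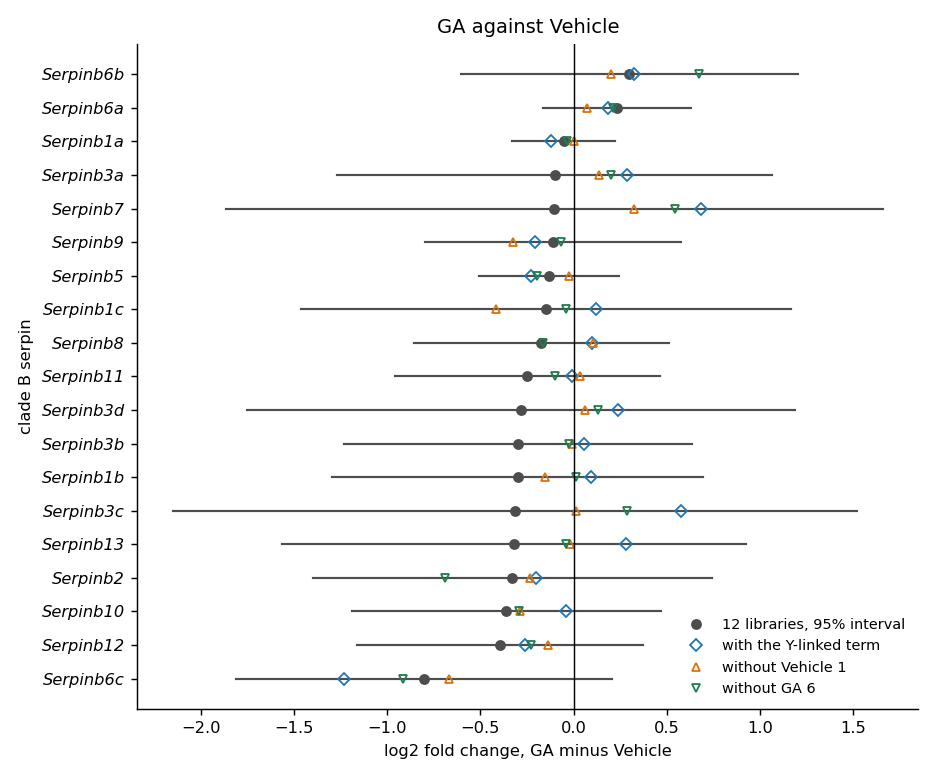
log2 fold change of GA minus vehicle for the 19 compared members. Filled points are the fit on 12 libraries with 95% intervals, and open symbols the fits with the Y-linked term, without Vehicle 1 and without GA 6. All 19 intervals include 0, and 11 members are above 0 with the Y-linked term.

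Marker lists were compared between the groups in the same libraries, and none of their genes was called. By exact permutation, p for the list means ran from 0.242 (squamous epithelium) to 0.710 (cytotoxic lymphocyte). Genes of a list can vary together, so their directions are not independent, and 49.1% of all tested genes were lower with GA. The 16 squamous epithelium genes had 15 lower with GA (median log2 fold change -0.23), and their mean log2 level ranged from 8.92 to 9.81 with vehicle and from 8.83 to 9.84 with GA. All 12 neutrophil genes had lower means (median -0.78), from -0.02 to 4.21 with vehicle and -0.19 to 2.65 with GA. Of the 12 macrophage and dendritic cell genes 10 were lower (median -0.11), with 1.6 to 2.86 and 1.48 to 3.01, and of 9 tested cytotoxic lymphocyte genes 3 were lower (median 0.06), with -2.05 to -0.25 and -1.63 to -0.43. All 8 fibroblast genes were lower (median -0.27), with 2.50 to 4.93 and 2.26 to 4.25, and 8 of 10 muscle genes were higher (median 0.45), with 5.91 to 9.22 and 6.48 to 8.82. All 4 tested von Ebner gland genes were lower (median -1.53), with -3.32 to 7.30 and -3.32 to 6.71, and 1 listed gland gene was at 0 in every library. The part of tissue mixture in the differences of the serpins was not tested beyond the fits with an epithelium or a neutrophil term, in which 14 and 15 of 19 members were lower.

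Proteases and related genes, among them known targets of clade B serpins, were measured beside the members. The list was not limited to known targets. Of 46 listed proteases and related genes, 40 passed the filter, 17 were higher and 23 lower with GA (median -0.07), and 0 were called. Elane, the neutrophil elastase gene, had 0 reads in every library, while Prtn3 had 0 to 6 reads and Ctsg 0 to 4. Transcripts of these targets of Serpinb1a were at or near 0, and Serpinb1a itself was at 36.8 to 57.4 scaled FPKM. Reads measure RNA only, and the amount of protease protein in the tissue was not measured. Gzmb, the target of Serpinb9, was low, at 0.557 ± 0.468 (SD, n = 6) with vehicle and 0.421 ± 0.286 with GA.

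Plau, the urokinase gene and target of Serpinb2, was at 25.2 to 69.7 scaled FPKM with vehicle (median 54.3) and 16.8 to 47.2 with GA (median 28.8). Its log2 fold change was -0.74 (standard error 0.31, limma unadjusted p = 0.0330, adjusted p = 0.99986, exact permutation p = 0.0606), the smallest p on the lower side of the list. Plat was at 1.97 ± 1.21 and 1.34 ± 0.637. Gzmm, a granzyme of natural killer cells, had the smallest p on the higher side, with 0.177 to 1.42 scaled FPKM with vehicle (median 0.536) and 1.00 to 1.88 with GA (median 1.37). Its log2 fold change was 1.08 (standard error 0.35, limma unadjusted p = 0.0092, adjusted p = 0.99986, exact permutation p = 0.0195), and it was not called. The cathepsin genes Ctsl (21.7 ± 7.98 and 25 ± 13.8), Ctsk (8.51 ± 9.85 and 5.65 ± 4.25) and Ctss (25.8 ± 12.2 and 25.9 ± 20.5), which the Serpinb3 and Serpinb13 products inhibit, differed by less than their spread. So did Furin, the target of Serpinb8, at 15.2 ± 3.71 and 13 ± 3.7. The highest levels in the list belonged to the kallikrein genes Klk10 (452 ± 129 and 467 ± 168) and Klk14 (458 ± 195 and 445 ± 93.6).

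Serpins of other clades and other protease inhibitors were also listed. Of 34 listed serpins of other clades, 33 were found, 20 passed the filter, 6 were higher and 14 lower with GA (median -0.23), and 0 were called. Serpina3n and Serpina9 were the most abundant, at 41.0 ± 50.1 with vehicle and 48.0 ± 81.7 with GA, and at 46.7 ± 36.0 and 36.0 ± 16.4. The smallest p-values belonged to Serpina3f on the lower side (-1.03, limma unadjusted p = 0.0445) and Serpinf2 on the higher side (0.58, unadjusted p = 0.241). Of 21 other protease inhibitors of epithelium, 20 passed, 3 were higher and 17 lower (median -0.25), and 0 were called. Stfa2, a stefin that inhibits cathepsins, was at 7.49 to 20 with vehicle (median 10.9) and 1.71 to 8.94 with GA (median 3.73), and differed by -1.57 (standard error 0.40, limma unadjusted p = 0.00185, adjusted p = 0.99986, exact permutation p = 0.00649). It belongs to a family of similar genes whose reads may be split. Wfdc12 also had an unadjusted p below 0.05 (-0.78, limma unadjusted p = 0.0287), and it was named after its values were seen. The smallest p on the higher side was that of Timp3 (0.36, unadjusted p = 0.197). Slpi and Spink5 were the most abundant, at 998 ± 383 with vehicle and 1031 ± 394 with GA, and at 285 ± 88.2 and 289 ± 189.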

How the data were processed

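RNA from mouse tongue was made into 12 SMARTer mRNA-seq libraries, 6 vehicle and 6 GA. The authors used HISAT2 and the mm10 build for alignment, took unique alignments per gene into featureCounts, and deposited FPKM values, so a log-scale test replaced the study's edgeR test on counts. Rows without a gene name (22965 of 55463, 41.4%) were left out. FPKM gave whole reads (tolerance 0.02) for 97.8% to 98.4% of low values with GENCODE M21 exon lengths, and vehicle libraries totalled 18040152 to 21770340 reads, GA libraries 21237167 to 25192491. Intervals are from the limma fit and measure the spread between libraries, whereas floors cover counting error only. Scaling factors came from trimmed means of M values (30% and 5% trimmed). Genes whose mean reached 0.1 FPKM were compared with limma 3.58.1 (R 4.3.3, mean trend) on log2(scaled FPKM + 0.1), and single members also with an exact two-sided permutation test on the same scale. The test was tried on simulated data. Alternatives were other pseudocounts (1, 0.01), filters and scalings, limma-voom on recovered reads, covariate terms, and leaving out libraries. Members and lists were chosen with earlier results of these data known. Members whose mean reached 0.1 FPKM, their closest non-member, and of each list the smallest p in each direction, the 2 highest levels and the known targets were named. Promoters are from RefSeq (GRCm38.p6).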

Additional observations from a re-analysis of the deposited data

Results flagged for a closer look

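Of 38 groups of 6 libraries (19 members in each group), 1 had a library set far apart from the rest, where chance gives about 1 in 20. Serpinb11 stood at 164 scaled FPKM in Vehicle 1, with the next vehicle library at 63.2, and the gap was 0.699 of the range of the group on the log2 scale, above the critical value for 6 samples. Vehicle 1 also held the highest level of Serpinb3a, Serpinb3b, Serpinb5, Serpinb7, Serpinb8, Serpinb12 and Serpinb13.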

How the results depend on the processing

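Over 27 alternative fits, 452 of 513 member differences kept their direction, 61 reversed and 0 met the call. Serpinb12, Serpinb6c and Serpinb6a kept their direction in all 27, at -0.67 to -0.09, -1.43 to -0.26 and 0.0074 to 0.50. Equal replicate numbers did not pair the libraries (r from -0.37 to 0.08), and the fit with replicate as a block gave 0 called genes, 0 members at p below 0.05 and 17 lower members. Without 1 library each, 0 to 1 genes were called (1 without Vehicle 4), 0 to 1 members had an unadjusted p below 0.05, 10 to 17 were lower with GA (10 without Vehicle 1), 7 to 11 were on the epithelial side and 0 to 1 on the leukocyte side (0 without Vehicle 6, GA 2 or GA 5). The number of members at an unadjusted p below 0.05 was 1 with no filter (Serpinb9e), the sex term (Serpinb6c) and the neutrophil term (Serpinb12). It was also 1 in libraries without Y-linked reads (Serpinb6c), without Vehicle 2 or Vehicle 4 (Serpinb6c) and without GA 6 (Serpinb6b). The fits on libraries without and with Y-linked reads were chosen after seeing the data. Of the vehicle libraries only Vehicle 5 and Vehicle 6 lacked such reads. Only GA 1 of the GA libraries had them, so no p-value is given for the libraries with them. Lower members numbered 8 with the sex term, 8 in libraries without and 9 in libraries with Y-linked reads. The epithelial side held 2 members with list anchors and 5 at a limit of 0.7, and the leukocyte side 0 with Spearman's rho, at a limit of 0.7 and within vehicle.

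Log2 fold changes that reversed were, with the sex term, Serpinb13 0.28, Serpinb3a 0.29, Serpinb3d 0.24, Serpinb3b 0.057, Serpinb3c 0.58, Serpinb7 0.68, Serpinb8 0.096, Serpinb1c 0.12 and Serpinb1b 0.094. In libraries without Y-linked reads they were Serpinb13 0.096, Serpinb3a 0.17, Serpinb3d 0.29, Serpinb3b 0.094, Serpinb3c 0.35, Serpinb11 0.067, Serpinb7 0.62, Serpinb2 0.23, Serpinb10 0.093, Serpinb8 0.22 and Serpinb6b -0.31. Libraries with them included GA 1 as the only GA library. There the reversed values were Serpinb13 0.61, Serpinb3a 0.50, Serpinb3d 0.15, Serpinb3c 0.97, Serpinb7 0.79, Serpinb1c 0.36, Serpinb9 0.27 and Serpinb1b 0.56. With the epithelium term they were Serpinb5 0.067, Serpinb2 0.18, Serpinb8 0.0092, Serpinb1a 0.010 and Serpinb6b -0.15, with the neutrophil term Serpinb1c 0.18 and Serpinb9 0.11, without the 3 libraries with high Lipf Serpinb1c 0.049, and with a pseudocount of 1 Serpinb7 0.043. Without 1 library, ranges that crossed 0 were -0.38 to 0.20 for Serpinb3a, -0.77 to 0.13 for Serpinb3d, -0.74 to 0.28 for Serpinb3c, -0.38 to 0.036 for Serpinb11, -0.38 to 0.55 for Serpinb7, -0.55 to 0.00048 for Serpinb10, -0.34 to 0.10 for Serpinb8, -0.12 to 0.0047 for Serpinb1a, -0.52 to 0.27 for Serpinb1c, -0.32 to 0.010 for Serpinb9 and -0.54 to 0.011 for Serpinb1b. The cause was not tested. Depth limits Serpinb13, Serpinb1c, Serpinb1b and Serpinb6c, whose lowest libraries had 9 to 12 reads.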

Other observations

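The ratio of Serpinb3c to Serpinb3a, which share most of their promoter window, was not fixed. It lay between 0.098 and 0.289 with vehicle (median 0.161) and between 0.050 and 0.303 with GA (median 0.146), with the highest values in GA 4, Vehicle 4 and GA 1 and the lowest in GA 6. Serpinb12 made up 18.8% to 34.6% of the family's summed level with vehicle and 17.7% to 27.3% with GA. The ratio of Serpinb10 to Serpinb2 was 0.085 to 0.204 with vehicle and 0.030 to 0.223 with GA, with GA 6 again the lowest.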
